A study of Caenorhabditis elegans with 9 samples.

Results

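The hif-1 mutant arrays are 3 of the 9 arrays of a Caenorhabditis elegans series on the response to hypoxia, and they were chosen as the arrays whose titles pair an N and an H sample of hif-1 worms. Each array is a spotted 2-colour array that compared total RNA marked H (Cy3) with total RNA marked N (Cy5), both from one genotype and one numbered replicate. H is read as hypoxia and N as normoxia from the title of the series. The other 6 arrays carry the same comparison in wild type worms (3 arrays) and in vhl-1 mutant worms (3 arrays). The labels give no allele, strain, age, oxygen level or length of exposure, nor whether a mutation removes all function of its gene. Nothing says whether the replicates came from separate cultures, so each p-value measures only how these samples spread, which may be technical.

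HIF-1 is the worm's hypoxia-inducible transcription factor. In normal oxygen it is hydroxylated by EGL-9, recognised by the ubiquitin ligase subunit VHL-1 and degraded; in low oxygen it is stable and activates its target genes, while in a vhl-1 mutant it is stable in normal oxygen as well. Worms without HIF-1 cannot use this route, and the comparison asks which genes differ between H and N in hif-1 mutant worms. Heat shock genes, controlled mainly by the transcription factor HSF-1, are the best known stress genes outside the HIF-1 route.

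Every value below is the log2 ratio of H over N for a gene on one array, centred on the median of that array, so a positive value means more RNA in H. The base of the logarithm and the direction of the deposited ratio are not stated in the sources used here. Base 2 is assumed, and the direction is likely, taken from the wording of the sample titles (N against H). Cy3 was always on H, so a probe that favours 1 dye cannot be told apart from a response within a genotype, while a dye effect alike on all arrays drops out of a difference between genotypes. In RNA from whole worms, fewer cells of a type and less RNA per cell cannot be told apart. Neither hif-1 nor vhl-1 was among the named spots, so the genotypes could not be checked in these values.

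The 3 hif-1 mutant arrays gave values for 21330 to 21438 of 21888 spots. A gene name was available for 7774 spots (35.5%). In all, 20858 features were tested with limma, of which 7179 were named genes and 13679 were spots without a name. Across features, the correlation between hif-1 mutant arrays was 0.18 to 0.32 (median 0.30), against 0.22 to 0.51 between wild type arrays and 0.52 to 0.71 between vhl-1 mutant arrays. The hif-1 mutant arrays correlated with vhl-1 mutant arrays by 0.29 to 0.56 (median 0.41). With wild type arrays they correlated by 0.07 to 0.43 (median 0.34). By these medians they were no more alike to each other than to the arrays of the other genotypes. Arrays 1 and 2 spread more widely around 0 (median absolute deviation, scaled to the SD of a normal distribution, 0.69 and 0.74) than array 3 (0.47). For 562 genes printed as more than 1 spot, the correlation across genes between 2 spots of a gene was 0.20 on array 1, 0.48 on array 2 and 0.50 on array 3.

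In the hif-1 mutant, 74 named genes differed between H and N (1.03% of the 7179 tested, adjusted p under 0.05 over all features). Of these, 36 were higher in H (0.501%) and 38 lower (0.529%). The highest were the small heat shock gene hsp-16.21, the neighbouring HSP70 genes F44E5.5 and F44E5.4, and pals-3, a member of a family known for its part in the response to intracellular pathogens. The lowest were C44B7.5, T10B10.4, K05G3.2 and Y106G6H.9, for which the files give no function. Over all features 365 passed (1.75%), 99 of them higher (0.475%) and 266 lower (1.28%). Scaling every array to the same spread changed the split to 12 higher and 90 lower, and that of the named genes to 3 higher and 9 lower. At an unadjusted p under 0.05 there were 4226 features (20.3%).

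**Figure D1:**
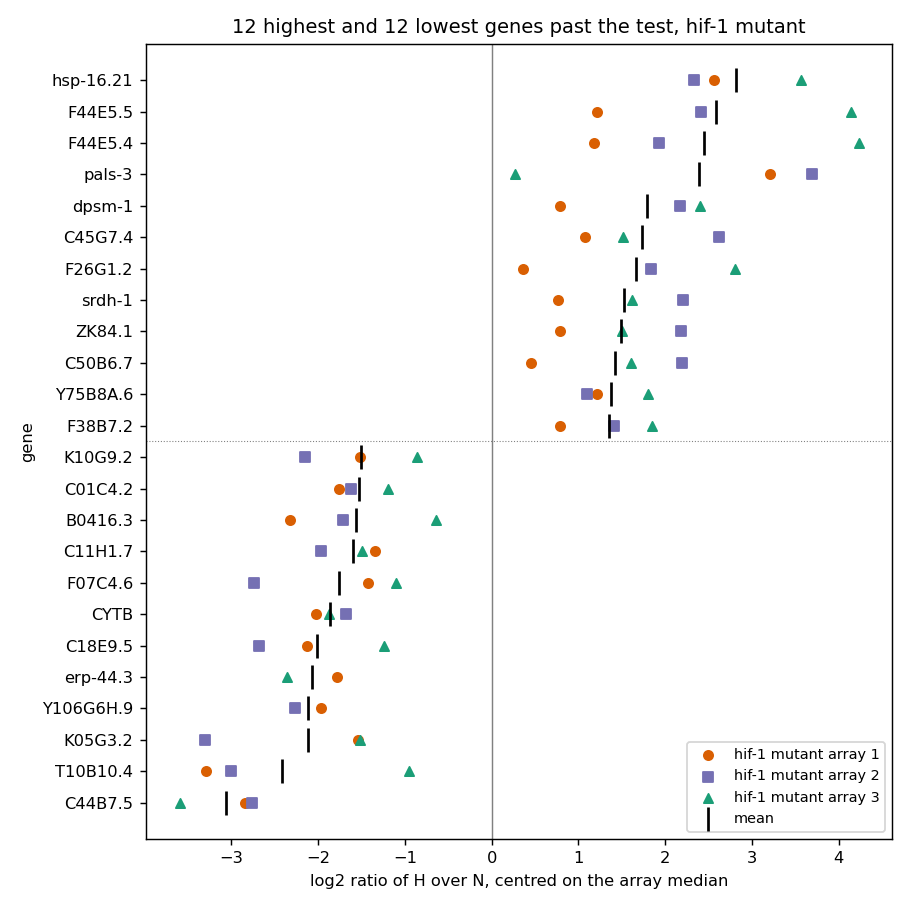
The 12 highest and the 12 lowest named genes past the test in the hif-1 mutant, with the log2 ratio of H over N on each of the 3 arrays (points) and their mean (bar). The arrays of every gene shown lie on one side of 0, but pals-3 ranges from 0.27 to 3.69 and the HSP70 genes F44E5.4 and F44E5.5 are highest on array 3.

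The small heat shock proteins of the HSP-16 family bind unfolding proteins and are induced by heat and other stress. The log2 ratio of hsp-16.21 was 2.57, 2.33 and 3.56 on arrays 1, 2 and 3 of the hif-1 mutant. All 3 arrays were high, and the mean was 2.82 ± 0.65 (SD, n = 3), a 7.07-fold higher level in H (limma, adjusted p = 0.00915). In wild type the values were 0.95, 3.67 and 1.68, a range that holds all 3 hif-1 mutant values, and the mean of 2.10 also passed the test (adjusted p = 0.0295). In the vhl-1 mutant they were 0.41, 1.68 and 0.63, all below the hif-1 mutant arrays, with a mean of 0.91 (adjusted p = 0.194). The difference between hif-1 and vhl-1 mutants, 1.91 with SE 0.61, did not pass (adjusted p = 0.768). The gene passed the hif-1 mutant test under each of the 12 other ways of processing and in each of the 9 fits that left out 1 array, with adjusted p up to 0.0488. Its relative hsp-16.20 had values of -0.13 and 1.69 on arrays 1 and 2 and none on array 3, and did not pass (mean 0.78, adjusted p = 0.428).

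F44E5.4 and F44E5.5 encode inducible HSP70 chaperones, which refold proteins with the use of ATP. They lie next to each other on chromosome II with 0 protein-coding genes between them, and they were the only neighbours among the 74 genes. F44E5.5 had log2 ratios of 1.21, 2.41 and 4.14 in the hif-1 mutant (mean 2.59 ± 1.47, SD, n = 3; adjusted p = 0.0301). F44E5.4 had 1.18, 1.93 and 4.23 (mean 2.45 ± 1.59; adjusted p = 0.0368). The paired genes gave nearly the same value on every array, with a median gap of 0.14 and a largest gap of 0.67 over the 9 arrays, and they are known to be near-identical, so the spots cannot be told apart and count as 1 observation. Array 3 was high and array 1 low in both. Without array 3 the means were 1.81 for F44E5.5 and 1.55 for F44E5.4, and neither passed (adjusted p = 0.112 and 0.125). Without array 2 they were 2.68 and 2.71, and neither passed (adjusted p = 0.0983 and 0.0963).

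The wild type values of F44E5.5 were 1.04, 1.81 and 3.26, within the range of the hif-1 mutant except for the lowest. The vhl-1 mutant values were 2.93, 4.15 and 5.09, with a mean of 4.06 that passed the test (adjusted p = 0.000788). They overlapped those of the hif-1 mutant, and the difference of -1.47 with SE 0.74 did not pass (adjusted p = 0.790). F44E5.4 had a mean of 4.03 in the vhl-1 mutant and 1.96 in wild type.

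**Figure D2:**
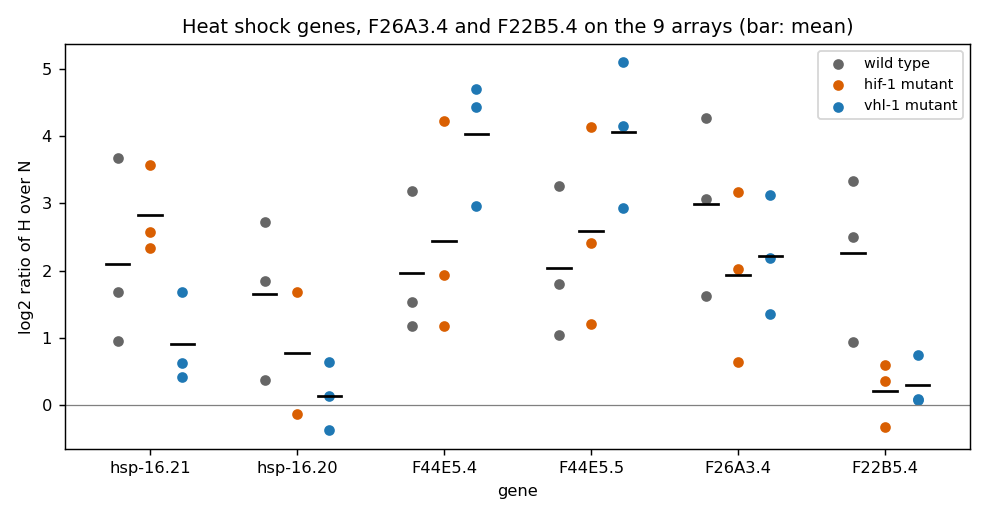
Log2 ratio of H over N of the measured heat shock genes, F26A3.4 and F22B5.4 on each array (points, coloured by genotype) with the genotype mean (bar). hsp-16.21 is high on all 3 hif-1 mutant arrays, and F22B5.4 lies between -0.33 and 0.60 there against 0.94 to 3.33 in wild type.

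Of the listed HIF-1 targets, 2 had a tested named spot. F22B5.4, known as a gene that hypoxia induces through HIF-1, had log2 ratios of 0.35, -0.33 and 0.60 in the hif-1 mutant (mean 0.21 ± 0.48, SD, n = 3) and did not pass (adjusted p = 0.793). In wild type it had 0.94, 2.50 and 3.33, all above the hif-1 mutant arrays, with a mean of 2.26 that passed (adjusted p = 0.00813). The difference between the genotypes, -2.05 with SE 0.52, had an adjusted p of 0.603 over all features. In the vhl-1 mutant the values were 0.09, 0.08 and 0.74, which overlap those of the hif-1 mutant. F26A3.4, which encodes a dual specificity phosphatase-like protein, gave 0.64, 2.02 and 3.16 in the hif-1 mutant (mean 1.94 ± 1.26). It did not pass there (adjusted p = 0.0664). It passed in wild type (mean 2.98, adjusted p = 0.00916) and in vhl-1 mutant worms (mean 2.22, adjusted p = 0.0176). Its 3 genotypes overlapped, with wild type at 1.62, 4.27 and 3.07, and the hif-1 mutant minus wild type difference of -1.04 with SE 0.71 did not pass (adjusted p = 0.923).

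pals-3 gave the least even of the rises. Its log2 ratio was 3.21 and 3.69 on arrays 1 and 2 and 0.27 on array 3, a mean of 2.39 ± 1.85 (SD, n = 3; adjusted p = 0.0327). The SD is that of the hif-1 mutant arrays, while the limma p uses an error shared by the 3 genotypes. Fitted without wild type and vhl-1 mutant arrays, pals-3 did not pass (adjusted p = 0.108). Arrays 1 and 2 were above all 6 arrays of the other genotypes, where values ran from -1.08 to 0.36, and array 3 lay inside that range. The mean was 1.98 without array 1 (adjusted p = 0.129), 1.74 without array 2 (adjusted p = 0.149) and 3.45 without array 3 (adjusted p = 0.00401). The difference from the mean of both other genotypes was 2.43 with SE 0.61, among the 8 named genes with the lowest p for that difference, and did not pass after adjustment (adjusted p = 0.975). Of 22 pals genes tested, pals-3 was the only one past the test, 18 had a mean below 0, and the median was -0.15 against 0.02 over all features. pals-22, known as a repressor of the pathogen response, had -2.58 and -1.04 on arrays 1 and 3 and no value on array 2, and did not pass (adjusted p = 0.225).

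The next genes in order of mean had smaller responses. dpsm-1 on chromosome I gave 0.79, 2.17 and 2.41 (mean 1.79 ± 0.87, SD, n = 3; adjusted p = 0.0212). It was the only rise that passed in all 3 genotypes, with a mean of 1.58 for wild type and 1.42 for vhl-1 mutant worms. In the hif-1 mutant, dpsm-1 did not pass in limma without array 2 or array 3 (adjusted p = 0.101 and 0.0809). Nor did it pass with arrays scaled to one spread (adjusted p = 0.0549) or with the hif-1 mutant arrays fitted alone (adjusted p = 0.0686). C45G7.4 on chromosome IV gave 1.08, 2.62 and 1.52 (mean 1.74; adjusted p = 0.0107), above all wild type arrays (-0.05 to 0.41) and overlapping the vhl-1 mutant (0.66 to 1.15). Its differences did not pass, with 1.49 against wild type (adjusted p = 0.603) and 0.80 against the vhl-1 mutant (adjusted p = 0.780). C50B6.7, which encodes an alpha-amylase, an enzyme that cuts starch and glycogen, gave 0.45, 2.20 and 1.61 (mean 1.42; adjusted p = 0.0295). Other rises with a known role were pgm-1, a phosphoglucomutase that links glucose phosphates to glycogen (0.67, 1.37 and 1.19), allo-1, an adaptor for the removal of paternal mitochondria by autophagy (1.89, 1.10 and 1.01), and argn-1, an arginase (1.09, 0.95 and 1.06). The arrays of these 3 genes lay between 0.67 and 1.89, and their adjusted p were 0.0462, 0.0263 and 0.0453. None of them passed with print layout centring, which subtracts the median of each place of the print block on an array (adjusted p = 0.166, 0.0909 and 0.0731), or with arrays scaled to one spread (0.0720, 0.0638 and 0.0852). The remaining genes among the 12 highest were F26G1.2, srdh-1, ZK84.1, Y75B8A.6 and F38B7.2, with means from 1.35 to 1.67.

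Among the genes lower in H, C44B7.5 on chromosome II was the lowest of all features in the hif-1 mutant. Its log2 ratio was -2.85, -2.76 and -3.59, a mean of -3.07 ± 0.46 (SD, n = 3) or an 8.37-fold higher level in N (adjusted p = 0.0212). All 3 arrays were low. Wild type was also low on every array (-2.04, -2.20 and -1.90), above the hif-1 mutant and without passing the test (mean -2.05, adjusted p = 0.117). The vhl-1 mutant arrays were apart from each other at -3.41, 1.12 and -0.61, and this spread enters the error of the gene in all 3 genotypes. C44B7.5 did not pass without array 1, 2 or 3 of the hif-1 mutant (adjusted p = 0.0598, 0.0819 and 0.0733), although its mean stayed between -3.22 and -2.80. T10B10.4 on chromosome X followed with -3.30, -3.002 and -0.96 (mean -2.42; adjusted p = 0.0212), lower on arrays 1 and 2 than on any other array.

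A set of 6 falls passed the test in all 3 genotypes. They were C10G11.6, C11H1.7, C18E9.5, K05G3.2, Y106G6H.9 and erp-44.3. C18E9.5 on chromosome II had the lowest adjusted p of all named genes in the hif-1 mutant (0.00796), with -2.12, -2.68 and -1.24 and a mean of -2.02 ± 0.73 (SD, n = 3), a 4.04-fold higher level in N. Its mean was -1.80 in wild type (adjusted p = 0.00883) and -2.61 in vhl-1 mutant worms (adjusted p = 0.000365). The arrays of the 3 genotypes overlapped. It passed under all 12 other ways of processing and in 8 of the 9 fits without 1 array, the exception being the fit without hif-1 mutant array 2 (mean -1.68, adjusted p = 0.0633). erp-44.3, named for its likeness to a thioredoxin-like protein that retains secreted proteins in the endoplasmic reticulum, had -1.79 and -2.35 on arrays 1 and 3 and no value on array 2 (adjusted p = 0.0137). Y106G6H.9 had -1.97 and -2.27 on arrays 1 and 2 and no value on array 3 (adjusted p = 0.0278). In the vhl-1 mutant their means were lower still, at -2.76 and -3.19, and no difference between these genotypes passed.

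Of the proteins encoded by the mitochondrial genome, 8 were tested and 1 passed, against 1.75% of all features and 1.03% of named genes. CYTB, the cytochrome b of respiratory complex III, fell on every hif-1 mutant array, with log2 ratios of -2.03, -1.68 and -1.88 (mean -1.86 ± 0.17, SD, n = 3; adjusted p = 0.0148). The other 7 genes of this genome did not pass. On array 1, 6 of the 7 were above 0 with a median of 1.07, on array 2 all 7 were below 0 with a median of -0.68, and on array 3 again 6 were above 0 with a median of 0.18. CYTB lay below all of them on each array. It also fell in vhl-1 mutant worms (mean -2.28, adjusted p = 0.00121) and had -1.02 and -1.48 on the 2 wild type arrays with a value (adjusted p = 0.167). CYTB did not pass without hif-1 mutant array 1 or 2 (adjusted p = 0.0572 and 0.0695). Of the nuclear genes of the respiratory chain, 0 of 24 passed in limma (2 at an unadjusted p under 0.05, against 20.3% of all features), with a median of 0.14.

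**Figure D3:**
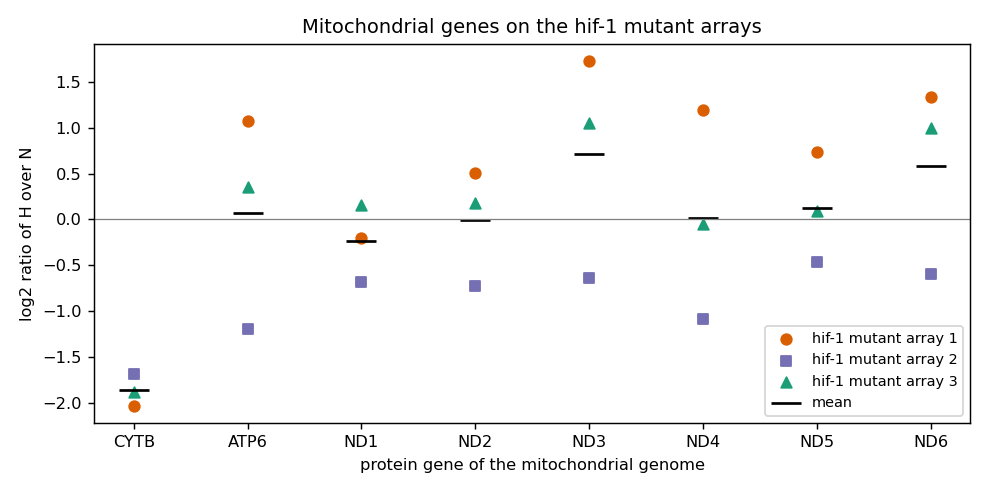
Log2 ratio of H over N of the 8 tested protein genes of the mitochondrial genome on the 3 hif-1 mutant arrays (points) with their means (bars). CYTB is near -1.86 on all arrays, while the other genes lie mostly above 0 on array 1, below 0 on array 2 and near or above 0 on array 3.

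The arrays differed in how far they showed the falls. The median of the 38 lower genes was -1.55 on array 1, -1.65 on array 2 and -0.99 on array 3, and array 3, which had the narrowest spread over all features, gave the smallest size for 24 of the 38. Of the 36 higher genes, 10 had their smallest value on array 3, and the medians were 1.12, 1.42 and 1.23. The most even responses were small. C01G12.7 on chromosome II had 1.10, 1.16 and 1.04 (SD 0.06), followed by argn-1, F46G10.2, F28H7.8 and ZK470.6, with SDs up to 0.11 and means of 1.01 to 1.22 in size. Most of the 74 genes (53) had means under 1.5 in size, 11 had 1.5 to under 2, and 10 had 2 or more. The genes just inside the threshold were T11B7.1, C34H4.1 and Y51A2D.8, with adjusted p of 0.0471 to 0.0489. Those just outside were C09F12.2, C18H9.5 and F53A9.7, with 0.0501 to 0.0520.

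Some of the 74 genes were printed as more than 1 spot. These were B0454.8, F01D5.5, F55H2.7 and K02D10.4, each with 2 spots, and both spots had the sign of the mean on every hif-1 mutant array. F55H2.7 gave 1.23, 1.15 and 1.16 at one spot and 1.78, 1.29 and 1.30 at the other. B0454.8 was less even, with 1.57, 1.38 and 1.75 at one spot and 0.21, 1.24 and 1.95 at the other. By chromosome the genes past the test were 20 of 1309 on II (1.53%), 14 of 1176 on X (1.19%) and 15 of 1667 on V (0.90%), against 1.03% of all named genes. Of the 74, 70 are protein coding and 4 are pseudogenes (F39E9.1, F21D9.6, T03E6.2 and W10G11.4). The position of a spot within its print block moved with the calls: of unnamed spots at places that hold no named gene, 130 of 2394 passed (5.43%), 122 of them lower (5.10%), against 161 of 11285 (1.43%) at the other places. With those places left out, 122 features and 37 named genes passed. With print layout centring, 102 features and 18 named genes passed, all 18 of them among the 74, such as hsp-16.21, C18E9.5, CYTB and C44B7.5.

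The same genes were then read on the 6 arrays of the other genotypes, which share no sample with the hif-1 mutant arrays. These 6 arrays did enter the error used to choose the 74 genes, so the reading is not fully independent of the choice. The mean in the vhl-1 mutant had the sign of the hif-1 mutant mean for 74 of the 74 genes, against 70.9% of all named genes. In wild type it did for 57 of the 74 genes, 26 of the rises and 31 of the falls, against 62.9% of all named genes. On all 6 of these arrays at once the sign was that of the hif-1 mutant for 42 of the 74 genes (13.9% of all named genes). Shared signs between genotypes hold any dye effect as well as any response, and these cannot be told apart here. For the 161 named genes with a mean of 1 or more in size that did not pass, the vhl-1 mutant sign was the same for 147 (91.3%). The wild type sign was the same for 127 of them (78.9%), a share near the 77.0% of the 74 genes.

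**Figure D4:**
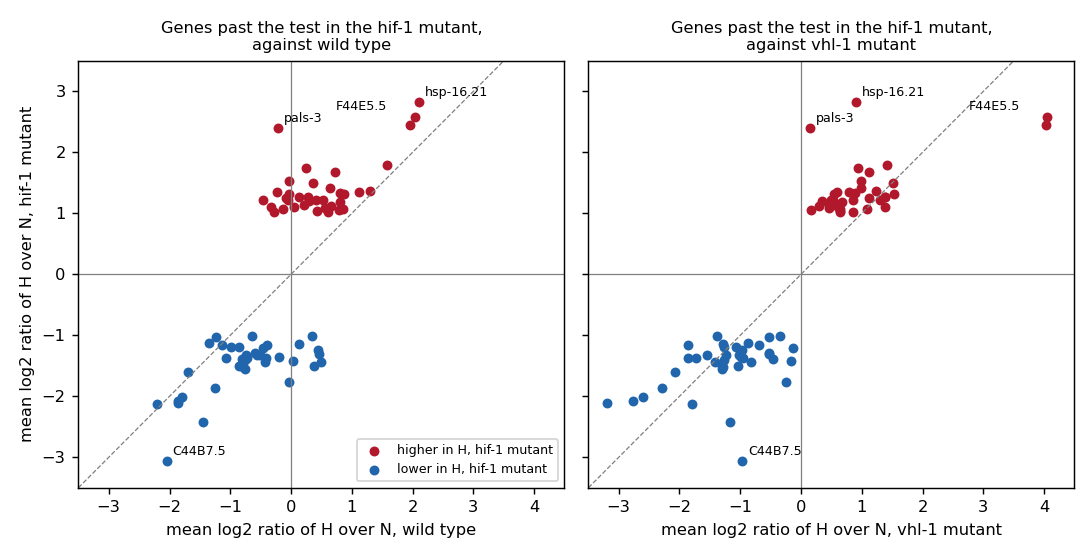
Mean log2 ratio of H over N of the 74 named genes past the test in the hif-1 mutant (vertical axis) against the mean in wild type (left) or the vhl-1 mutant (right), with rises in red and falls in blue; the dashed line marks equal values. In the vhl-1 mutant every point has the sign of the hif-1 mutant mean, while in wild type 10 rises and 7 falls have the opposite sign.

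Past the test in the vhl-1 mutant as well were 38 of the 74 genes (6.16% of named genes passed there), and in wild type 10 (0.474% of named genes passed there). The tests of a gene in the 3 genotypes use the same error, so a gene with a small error is favoured in all of them. The shares among the 74 are therefore raised in part by the choice. The 7 genes that passed in all genotypes are dpsm-1 and the 6 falls named above. Another 31 passed in both mutants and not in wild type, 13 of them higher and 18 lower. The rises include F44E5.4 and F44E5.5, C50B6.7 and pgm-1, and the falls CYTB, T05C1.5 (mean -1.37, and -1.86 in the vhl-1 mutant) and T26C5.3 (-1.32 and -1.54). A further 3 passed in the hif-1 mutant and in wild type and not in the vhl-1 mutant: hsp-16.21, F56C9.8 (-1.02, and -1.24 in wild type) and T19C3.6 (-1.12 and -1.36). The other 33 passed in the hif-1 mutant alone, 21 higher and 12 lower. Passing in one genotype and not in another does not show that the genotypes differ, and the differences were tested as such.

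Tested directly, no difference between the hif-1 mutant response and that of another genotype passed. With limma over all features, 0 of 20858 passed for the hif-1 mutant minus wild type (0.0%, with 1239 or 5.94% at an unadjusted p under 0.05). The count was also 0 for the hif-1 mutant minus the vhl-1 mutant (0.0%, with 1336 or 6.41%) and 0 for the hif-1 mutant minus the mean of both (0.0%, with 963 or 4.62%). The median SE of a difference between 2 genotypes was 0.38, against 0.27 for a response. Leaving out wild type array 1 gave 1 feature for the first difference, and leaving out hif-1 mutant array 3 gave 4 features for the second and 3 for the third.

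The 8 named genes with the lowest p against wild type included 4 of the falls, B0280.7, F01D5.5, F41G3.10 and C30G12.1, and 1 of the rises, B0454.8. The other 3, slfl-3, snrp-40.1 and chtb-1, did not pass in the hif-1 mutant. B0280.7 on chromosome III had -1.67, -1.65 and -1.003 in the hif-1 mutant (adjusted p = 0.0136) and 0.15, 0.55 and 0.75 in wild type. The genotypes did not overlap, and the difference was -1.92 with SE 0.34 (adjusted p = 0.446). The vhl-1 mutant values of -0.98, -1.72 and -1.56 lay with those of the hif-1 mutant. F01D5.5 had -1.20, -1.46 and -1.06 against 0.25, 0.17 and 0.90 in wild type, with -0.99, -1.41 and -0.50 in the vhl-1 mutant, an order alike to that of B0280.7. C30G12.1 was the most even of them, at -0.96, -1.24 and -1.25 against 0.14, 0.10 and 0.15 in wild type, with -1.34, -1.26 and -1.24 in the vhl-1 mutant. In all, 7 falls (these 3, F41G3.10, F48G7.5, ZK470.6 and C04E6.8) and 10 rises had a wild type mean of the opposite sign. B0454.8 was such a rise, with 0.89, 1.31 and 1.85 against -0.29, -0.03 and -0.39 in wild type, with 0.50 to 1.21 in the vhl-1 mutant (difference 1.59, SE 0.34, adjusted p = 0.539).

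A few genes stood apart from both other genotypes. Of the 74, 5 had hif-1 mutant arrays beyond all 6 other arrays, against 1.70% of all named genes: DC2.5, F28H7.8 and K02D10.4 above them, F07C4.6 and F41G3.10 below. All 5 were chosen for their size in the hif-1 mutant, so their place at the edge is in part set by the choice. F28H7.8 had 1.29, 1.12 and 1.24 against -0.12 to 1.04 in the other genotypes. F41G3.10 had -0.89, -1.59 and -1.44 against -0.71 to 1.17, with a difference from the mean of both of -1.28 (adjusted p = 0.975). Against either genotype alone, 30 of the 74 genes did not overlap wild type (9.99% of named genes) and 15 did not overlap the vhl-1 mutant (11.1% of named genes). The choice of the 74 for their hif-1 mutant response sets these counts in part as well.

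Genes outside the 74 also had low p for a difference. snrp-40.1, which encodes a protein of the U5 particle of the spliceosome, had -1.06, -0.73 and -0.66 in the hif-1 mutant and did not pass (adjusted p = 0.188). Wild type had 0.30, 2.15 and 1.94, all higher, and the difference of -2.28 with SE 0.46 did not pass (adjusted p = 0.473). F49C12.4 had small and even values of opposite sign, at 0.36, 0.59 and 0.53 in the hif-1 mutant against -0.61, -0.63 and -0.51 in wild type, with -0.33, -0.36 and -0.58 in the vhl-1 mutant. Its hif-1 mutant mean of 0.49 was not past the test (adjusted p = 0.191). T22F3.11 had the lowest p of the named genes against the mean of both genotypes, with uneven arrays at -0.89, -3.06 and 0.04 (difference -2.53, adjusted p = 0.975).

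Most gene groups with a tested member, listed by symbol, held no gene past the test. Many groups were small, since few spots have a name, and only 19 of the 42 lists had 5 or more tested members. Lists with no tested member include the HIF-1 pathway, glycolysis and gluconeogenesis, aminoacyl tRNA synthetases, histones and nuclear hormone receptors. The responses of those groups were not tested. Of 287 distinct members tested in 32 lists, 6 passed, against 1.75% of all features and 1.03% of named genes: hsp-16.21, F44E5.4, F44E5.5 and pals-3 higher, erp-44.3 and CYTB lower. The HSP70 pair among them counts as 1 observation. The lists hold named genes only. Of all 7179 named genes, 1268 had an unadjusted p under 0.05 in limma, 3576 had a mean above 0, and the median was -0.003. The carboxylesterase genes, whose enzymes cut ester bonds in lipids and foreign compounds, had 0 of 32 past the limma test and 5 at an unadjusted p under 0.05, a level that 20.3% of all features reached. Their median was 0.28, with 24 of 32 means above 0, against a median of 0.02 and 10865 of 20858 above 0 over all features. cest-24 was the highest of them, with 0.23, 3.20 and 2.75 (adjusted p = 0.0588), lower on array 1 than on the others. cest-27 was more even, with 0.72, 0.97 and 1.14 (adjusted p = 0.0593), and its means in wild type (0.95) and the vhl-1 mutant (0.97) were the same to within 0.03. The genes named for intrinsically disordered proteins had 0 of 26 past the test and 5 at an unadjusted p under 0.05 (20.3% of all features), with a median of -0.24 and 20 of 26 means below 0. The lowest of these, idpb-3, had -3.33, -2.76 and -1.59 (adjusted p = 0.0596).

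The other groups likewise held no gene past the test, and their medians lay on both sides of that of all features (0.02). Proteases of the trypsin-like and carboxypeptidase-like kinds had 0 of 11 past the test (3 at an unadjusted p under 0.05, which 20.3% of all features reached), with a median of -0.34 and 9 of 11 means below 0. Receptors of neuropeptides and biogenic amines had 0 of 11 (4, median 0.23), C-type lectin and antimicrobial genes 0 of 6 (3, median 0.28), and genes of fatty acid and lipid metabolism 0 of 5 (2, median 0.57). Ion channels and transporters had 0 of 26 past the test (3 at an unadjusted p under 0.05, median 0.08). Genes of N-glycosylation and membrane traffic had 0 of 25 (5, median 0.15), neuropeptide-like and insulin-like genes 0 of 18 (3, median -0.10), and RNA binding and splicing genes 0 of 14 (2, median 0.10). Translation factors had 0 of 6 (1, median -0.05), and collagens 0 of 5 (3, median 0.74, with 4 of 5 means above 0). Those 4 collagen genes were all highest on array 2. Without that array their means were 0.43 for col-17, 0.34 for col-2, 0.03 for col-19 and 0.02 for dpy-7. Of the tissue markers, sperm genes had 0 of 8 past the test (0 at an unadjusted p under 0.05, median -0.19), germ line genes 0 of 2 (0) and intestine genes 0 of 1 (0). Yolk, muscle and neuron markers had no tested named spot, so the part of tissue or stage in the responses was not tested.

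The number of genes past the test depended on single arrays and on processing. Leaving out hif-1 mutant array 2 left 58 features and 3 named genes (hsp-16.21, D2092.8 and erp-44.3). Of these, erp-44.3 has no value on array 2, so that fit removed none of its hif-1 mutant values. Leaving out array 1 gave 34 named genes, 17 of them among the 74, and leaving out array 3 gave 53, of which 29 were. Leaving out an array of another genotype acts through the shared error and the filter on missing values, and gave 40 named genes without wild type array 2 and 42 without vhl-1 mutant array 3. hsp-16.21 was the only one of the 74 to pass without each hif-1 mutant array in turn. Scaling left 12 of the 74 genes, among them hsp-16.21, C45G7.4, B0280.7, C30G12.1, K10G9.2 and C18E9.5.

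**Figure D5:**
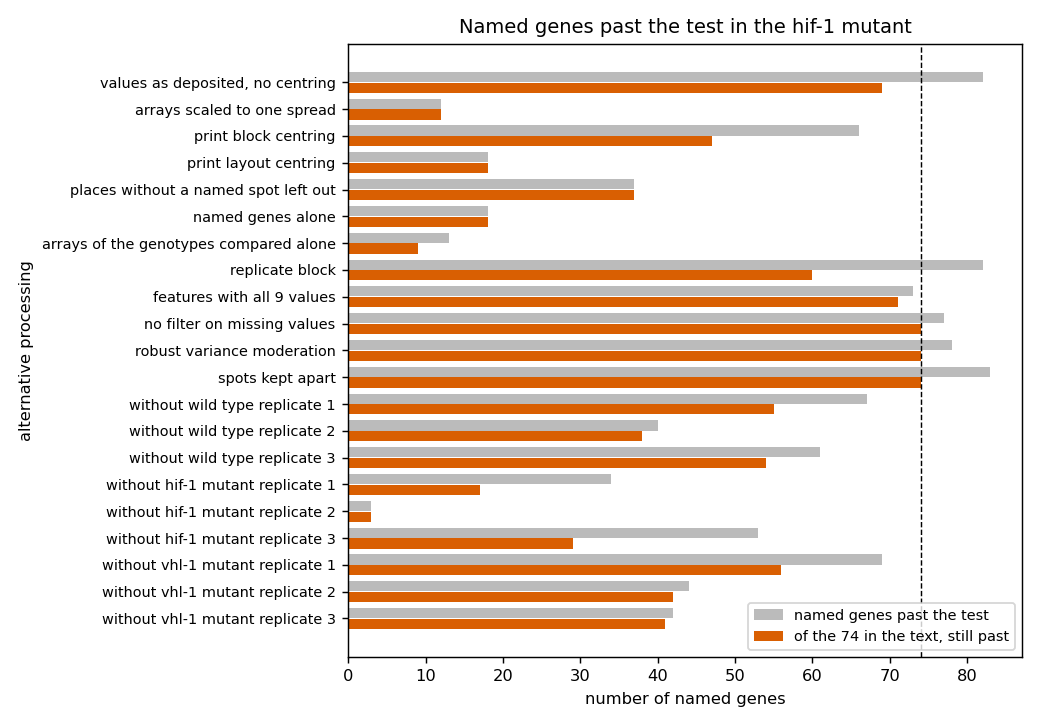
Number of named genes past the test in the hif-1 mutant under each alternative processing and without each array (grey), and how many of the 74 genes of the text are among them (orange); the dashed line marks 74. The count falls to 3 without hif-1 mutant array 2 and to 12 with arrays scaled to one spread.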

How the data were processed

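The deposited table gives 1 value for each spot on each array, taken here as log2 ratios that were near 0 in the middle as deposited (array medians -0.062 to 0.061). How the authors analysed images, corrected background and normalised is not given in the sources used here. Without intensities, the signal over background of a spot is unknown. The deposited sign was turned to H over N. Cells marked null (3303) or empty (1156) were missing. Names came from the platform's annotation, updated through gene identifiers of the WBcel235 assembly (7741 of 7774 named spots matched). Array medians were then subtracted, several spots of a gene were averaged on each array, and a feature was kept with values on 2 or more arrays in each genotype (20858 features).

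limma 3.58.1 in R 4.3.3 (statmod 1.5.0) fitted 1 mean per genotype to all 9 arrays with a shared residual spread (6 residual degrees of freedom, prior 6.95). The hif-1 mutant mean was tested against 0 and its differences from the other genotypes were tested as contrasts, with Benjamini-Hochberg adjustment across all features and a threshold of 0.05. The 12 highest and 12 lowest genes past the test with the same sign on every array, the 8 genes with the lowest p per difference, list members, the most and least even responses and the genes nearest the threshold could be named. The genes named by their overlap with other genotypes, by genotype class, by known role or by repeated spots, within the genes past the test, were picked after their values were seen. The members and the 42 gene lists (32 with a tested member) were chosen with earlier results of these data known. The precision is limited by the 3 arrays per genotype.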

Additional observations from a re-analysis of the deposited data

Results flagged for a closer look

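Genes whose arrays all lay on one side of 0 in the hif-1 mutant and all on the other side in another genotype were looked at again, among the genes the text may name. There were 21 such differences, 15 against wild type and 6 against the vhl-1 mutant. The genes looked at include the 8 with the lowest p for each difference, so the count is in part set by the choice. All 8 of those against wild type are among the 15. The share over all features was not counted. Arrays without overlap, a wider condition, were found for 9.99% of named genes against wild type and 11.1% against the vhl-1 mutant. Each was tested in limma as a difference between genotypes, and 0 of the 21 passed after adjustment over all features (adjusted p from 0.446 to 0.772).

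Against wild type, 11 were lower in the hif-1 mutant. The difference was -1.92 for B0280.7, -1.68 for F01D5.5, -1.77 for F41G3.10, -1.28 for C30G12.1, -1.36 for ZK470.6, -1.54 for slfl-3, -2.15 for chtb-1, -2.28 for snrp-40.1, -1.13 for C09F12.2, -1.31 for idpp-7 and -1.12 for ctsa-3.2. The first 5 of these genes are among the 74 past the test of the hif-1 mutant response, and the other 6 are not. The 4 higher ones were B0454.8 with a difference of 1.59, C12D12.1 with 1.69, irg-8 with 1.51 and F49C12.4 with 1.07.

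Against the vhl-1 mutant, F49C12.4 was again higher in the hif-1 mutant, by 0.92 (adjusted p = 0.768), so its arrays were on the opposite side from all 6 arrays of the other genotypes. F35E2.8 was higher by 1.67 and H17B01.2 by 1.78. C14A4.12 had a difference of -1.27, T04A6.2 of -1.21 and col-7 of -0.77. No outlier test was made, since groups of 3 arrays are too small for it.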

How the results depend on the processing

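The hif-1 mutant count of 365 features and 74 named genes was 102 and 12 with arrays scaled to one spread, 102 and 18 with print layout centring, 122 and 37 with places without a named spot left out, 18 and 18 with named genes alone, and 124 and 13 when no other genotype entered the fit. Values as deposited, print block centring, features with all 9 values, no filter on missing values, robust variance moderation and spots kept apart kept both counts within 1.5 times. Leaving out 1 array gave 58 to 349 features and 3 to 69 named genes. For the differences, leaving out 1 array gave 0 to 1 features against wild type (0 named genes), 0 to 4 features and 0 to 2 named genes against the vhl-1 mutant, and 0 to 3 features and 0 to 1 named genes against the mean of both, and the other alternatives gave 0. Members of the gene lists past the test numbered 6, and 1 with scaling, 3 with print layout centring and 3 with named genes alone; leaving out 1 array gave 2 to 8. No response past the test changed sign under these alternatives. Apart from the smaller sets of features or arrays that some alternatives use, the cause was not tested.

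Across all features, deviations of same-numbered arrays from their genotype means correlated by -0.20 to 0.27. This does not settle whether the replicate numbers pair the arrays across genotypes. F44E5.5 rose from array 1 to array 3 in every genotype. With a term for the replicate number (the replicate block) its adjusted p in limma was 0.0025. F26A3.4 (adjusted p = 0.0126) and cest-24 (adjusted p = 0.0104) then passed as well. With the replicate block the count was 426 features and 82 named genes, of which 60 were among the 74. The 3 arrays per genotype and the unknown signal over background limit what small responses can show.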
